A study of Mus musculus with 12 samples.

Results

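The 10 genes described here are endothelial and endocardial identity genes, comprising Pecam1, Tie1, Emcn, Eng, Erg, Egfl7, Esam, Plvap, Npr3 and Nfatc1. They were taken by gene symbol from a table of 55228 genes, and all 10 passed the filter on low counts, which left 23853 genes for testing. The data are mRNA-seq counts from mouse proepicardium (PE), dissected by hand from embryos at embryonic day (E) 9.5, and from embryonic epicardium (EE), collected at E10.5 by fluorescence-activated cell sorting, with 3 libraries per stage. Small RNA-seq counts came from 3 further libraries per stage. Every sample carried the strain label Wt1Cre-EGFP, an allele driven by the locus of Wt1, an epicardial transcription factor, received no treatment and pooled several embryos. The labels do not name the signal used for sorting, nor do they say that the libraries of a stage came from separate litters, so p-values measure the spread between these pools. Because PE was dissected and EE was sorted, the stage cannot be told apart from the way in which the cells were collected.

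Endothelial cells line blood vessels, and the endocardium is the specialised endothelium that lines the heart chambers. The proepicardium is a cluster of mesothelial cells that forms next to the sinus venosus and the liver bud, where vessels and hepatic sinusoids run, and its cells move onto the heart to become the epicardium. Most of the 10 genes mark endothelium of all kinds, whereas Npr3 and Nfatc1 are best known in the early heart as endocardial markers. Npr3 is also made by other cell types, epicardial cells among them.

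Total mRNA counts per library ranged from 18464362 to 25814015, so a level of 0 allows up to 0.112 to 0.171 CPM (counts scaled to library size), which is what 3 counts are worth and covers counting error only. Fewer genes were detected in EE replicate 3 (EE3), with 18763, than in the other 5 libraries, with 22186 to 24842. The labelled tissues were compared with their markers. All 6 epicardial markers were higher in EE, with a summed level of 503 to 566 CPM in PE and 4806 to 6830 CPM in EE. All 6 hepatoblast markers were higher in PE, with 2756 to 4564 CPM against 3.28 to 60.1 CPM in EE, and 3 of 6 cardiomyocyte markers were higher in EE, with 1511 to 2186 CPM in PE against 4257 to 6075 CPM in EE. The summed level of 16 blood cell markers overlapped between the stages, at 2961 to 7661 CPM in PE and 4941, 8777 and 629.3 CPM in EE1, EE2 and EE3. Most of this sum came from the globins Hbb-y, Hba-x and Hbb-bh1. Of the 16, 1 was higher in EE, the platelet gene Pf4, at 3.11 to 25.0 CPM in PE and 43.7 to 67.0 CPM in EE. This did not hold without PE2, without PE3 or without any 1 of the EE libraries. The part of these other cell types in the differences below was not tested.

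Of the 10 genes, 7 were higher in PE, 1 was higher in EE and 2 failed the test, which asked for an adjusted p of at most 0.05 (quasi-likelihood test of edgeR, adjusted after Benjamini and Hochberg) and more than a 1.5-fold difference. Across all genes tested, 4.86% were called higher in PE and 4.52% higher in EE. Pecam1, Tie1, Emcn, Eng, Erg, Egfl7 and Esam were higher in PE, by 2.86-fold for Eng to 10.3-fold for Tie1 and, from few EE reads, 20.6-fold for Erg, and Npr3 was 2.93-fold higher in EE. The median log2 fold change (EE over PE) of the 10 genes was -2.09, beside -0.06 over all genes tested. The 3 libraries of each stage did not overlap in CPM for any of the 10 genes. PE was above EE for 8 of them, a pattern seen in 18.6% of all genes tested, and EE was above PE for Npr3 and Nfatc1, a pattern seen in 13.4%. In bulk samples such as these, fewer cells of a type and less RNA per cell cannot be told apart.

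**Figure D1:**
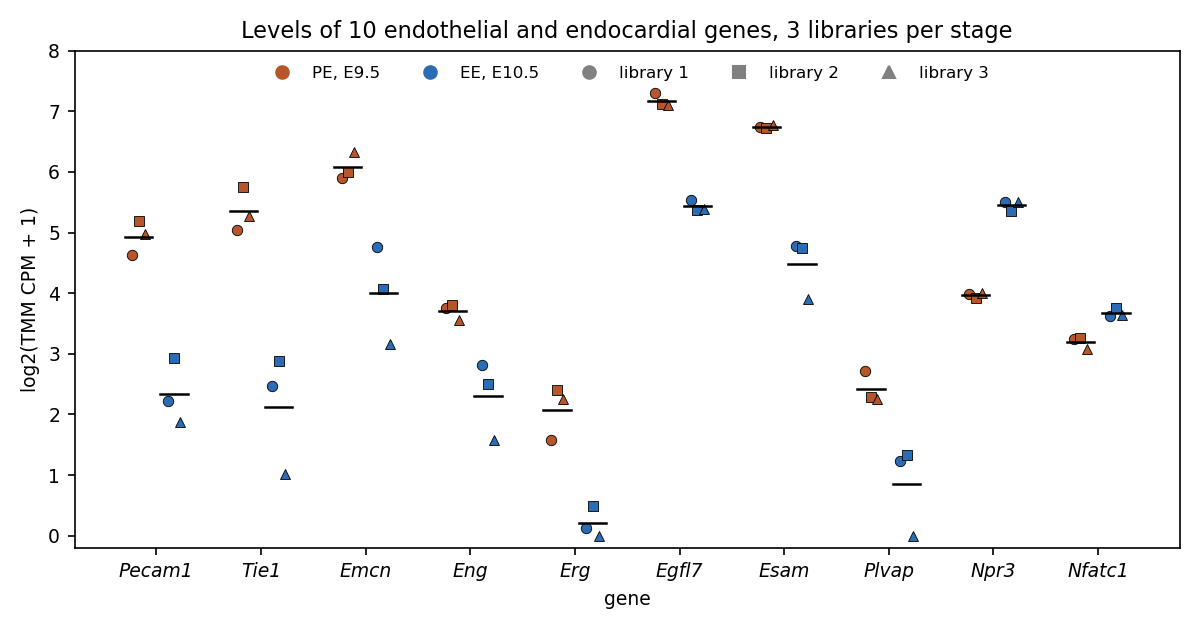
Level of each of the 10 genes as log2(CPM + 1), with 1 point per library, for the 3 PE libraries (E9.5) and the 3 EE libraries (E10.5). The short horizontal lines mark the mean of each stage on this scale. For 8 of the genes all PE points lie above all EE points, and for Npr3 and Nfatc1 the order is the opposite.

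The adhesion molecules of the endothelial junction were examined first. Pecam1 (CD31, chr11:106654217-106750628, minus strand, GRCm38) encodes an immunoglobulin-family protein through which endothelial cells hold to each other. Its level was 23.7, 35.5 and 30.4 CPM in PE1, PE2 and PE3 and 3.69, 6.61 and 2.68 CPM in EE1, EE2 and EE3. The lowest PE library was thus well above the highest EE library, and the means were 29.8 ± 5.90 and 4.33 ± 2.04 CPM (SD, n = 3 each). On the log2 scale, EE over PE, the difference was -2.78 (SE 0.368, adjusted p = 0.0018). Esam (chr9:37528078-37538319, plus strand), an immunoglobulin-family molecule of endothelial tight junctions and platelets, was the steadiest of the set in PE. It measured 105.5, 105.4 and 108.3 CPM in the PE libraries and 26.5, 25.7 and 14.0 CPM in the EE libraries. EE1 and EE2 lay close together and EE3 was about 0.528 times EE1. The log2 fold change of Esam was -2.27 (SE 0.265, adjusted p = 0.000921).

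Esam binds scaffold proteins of the junction, so 6 tight junction partners were examined with it. Their summed level was 267.6 to 349.9 CPM in PE and 369.1 to 464.7 CPM in EE, and their median log2 fold change was -0.36. Jam3, a junctional adhesion molecule that is also made outside endothelium, was 2.19-fold higher in EE (log2 fold change 1.13, adjusted p = 0.00357), with 61.0 to 66.7 CPM in PE and 132.3 to 146.7 CPM in EE. The remaining 5 did not pass the test. Among these 5, F11r, another junctional adhesion molecule, had 149 to 207 CPM in PE and 173 to 274 CPM in EE, and the stages overlapped.

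Emcn (endomucin, chr3:137341067-137432185, plus strand) encodes a sialomucin, a heavily glycosylated surface protein of venous and capillary endothelium and of endocardium. The PE libraries held 58.8, 63.0 and 79.1 CPM and the EE libraries 26.1, 15.8 and 7.99 CPM. All PE libraries lay above the EE libraries, which differed among themselves, with EE3 at 0.306 times EE1. This gave a log2 fold change of -2.01 (SE 0.382, adjusted p = 0.0108), and the call was lost without EE2 (adjusted p = 0.0567). Of 3 other sialomucins, Cd34, which marks endothelium and blood progenitors, was higher in PE and Podxl, which endothelium shares with mesothelium and podocytes, was higher in EE. Cd34 measured 66.0, 78.4 and 80.2 CPM in PE and 21.2, 16.6 and 6.45 CPM in EE, for a log2 fold change of -2.34 (adjusted p = 0.00524), falling to its lowest in EE3 as Emcn did. Podxl measured 58.7, 74.4 and 67.9 CPM in PE and 112.8, 142.6 and 195.6 CPM in EE, for a log2 fold change of 1.17 (adjusted p = 0.0136, lost without PE3). Its highest library was EE3. Cd164, the most abundant of the 3, had 320 to 401 CPM in PE and 392 to 554 CPM in EE and did not pass.

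Tie1 (chr4:118471191-118490061, minus strand) encodes an endothelial receptor tyrosine kinase that binds no ligand strongly by itself and works together with Tek (Tie2), the angiopoietin receptor. Tie1 was at 31.9, 53.1 and 37.9 CPM in the PE libraries and at 4.55, 6.39 and 1.03 CPM in the EE libraries. All EE libraries lay far below all PE libraries, and EE3 held 0.226 times the level of EE1. For Tie1 the log2 fold change was -3.35 (SE 0.542, adjusted p = 0.00506), or 10.3-fold in the means. Tek did not follow Tie1. It measured 109, 195 and 179 CPM in PE and 277, 227 and 145 CPM in EE, so that the stages overlapped (log2 fold change 0.42, SE 0.287, adjusted p = 0.410). Within a library, which removes any effect of scaling between libraries, the ratio of Tek to Tie1 was 3.42, 3.68 and 4.72 in PE and 60.8, 35.5 and 141 in EE.

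Eng (endoglin, chr2:32646595-32682669, plus strand) encodes a co-receptor for the ligands Bmp9 and Bmp10 on endothelial cells. It measured 12.6, 12.9 and 10.8 CPM in PE and 6.03, 4.66 and 2.0 CPM in EE. The 3 PE libraries were close to each other and none of the EE libraries reached them, with a log2 fold change of -1.51 (SE 0.404, adjusted p = 0.0462). This was the weakest call of the set, and it was lost without PE1 (adjusted p = 0.0913), PE2 (0.141), PE3 (0.103) or EE2 (0.101). In the annotation, 1.51% of the exon bases of Eng overlap Fpgs on the other strand, and the library kit does not mark strand. Of 8 ligands, receptors and Smad proteins that work with endoglin, 2 were higher in PE, the receptor Acvrl1 and the ligand Bmp10, and neither call was kept without PE2 or without PE3, nor that of Acvrl1 without EE1. Gdf2, the gene of Bmp9, did not pass the test, with 22.8, 16.9 and 19.0 CPM in PE and 18.7, 7.94 and 7.02 CPM in EE. Tgfbr1, the most abundant of the 8, had 66.5 to 77.5 CPM in PE and 48.5 to 72.6 CPM in EE, and the median log2 fold change of the 8 was -0.36.

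Erg (chr16:95359169-95586593, minus strand) encodes a transcription factor of the ETS family that maintains endothelial genes. It had the lowest mean level of the 10 per length at both stages and the largest fold change, which rests on few EE reads. The counts were 49, 110 and 100 in the PE libraries and 2, 9 and 0 in the EE libraries, which corresponds to 1.97, 4.29 and 3.75 CPM and to 0.0867, 0.399 and 0 CPM. EE1 was thus below the level of 3 counts and EE3 held no read, which allows up to 0.171 CPM there. For Erg the log2 fold change was -4.27 (SE 0.899, adjusted p = 0.0174), and it was -5.98 without EE2 and -3.76 without EE3. The call was lost without PE2 (adjusted p = 0.0641), PE3 (0.0538) or EE1 (0.0546).

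Of 13 other transcription factors of endothelial and blood progenitor cells, 4 were higher in PE, with the other 9 not passing and with a median log2 fold change of -1.10. Without PE2 the count was 2. The summed level of the 13 was 160 to 172 CPM in PE and 89.7, 93.4 and 49.5 CPM in EE1, EE2 and EE3. Elk3, an ETS repressor, measured 34.0, 39.4 and 34.8 CPM in PE and 11.5, 10.3 and 4.39 CPM in EE, for a log2 fold change of -2.04 (adjusted p = 0.00647). Fli1, the closest relative of Erg, measured 25.2, 34.5 and 34.3 CPM in PE and 5.55, 13.1 and 2.57 CPM in EE, for a log2 fold change of -2.14 (adjusted p = 0.0265, lost without PE2, PE3 or EE1), and it was -2.95 without EE2. The other calls were Ets2 (log2 fold change -1.28, adjusted p = 0.0248, lost without PE1, PE2 or EE2), an ETS factor with wide expression, and Sox18 (adjusted p = 0.00768), a Sox factor of vessel and lymphatic endothelium. Sox18 was low at 3.18, 0.976 and 1.16 CPM in PE, and its EE libraries were at or below 1 count. Ets1 and Etv6, which many cell types make, were among the most abundant of the list and did not pass. Ets1 held 37.4 to 38.5 CPM in PE and 24.3 to 36.5 CPM in EE.

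Because Erg and its relatives bind the ETS core GGAA, promoter windows of 6 of the 10 genes were searched for it on both strands (GGAA or its complement TTCC). The windows cover 250 bases before and 50 bases after the transcript start and come from RefSeq on GRCm38.p6. From the table used, 10 windows were searched, those of Tie1, Emcn, Eng, Erg, Egfl7 and Npr3. It held none for Pecam1, Esam or Plvap. Nfatc1 was left out of the search, so the matches given below do not cover it. GGAA was present in 9 of the 10 windows and in 96.0% of all 32851 windows in the table, where the median was 3 matches, so its presence does not set these genes apart. The number of matches varied. The 3 Egfl7 windows held 5, 4 and 1, the Eng window 4 and the 3 Erg windows 2, 4 and 1. The Tie1 window held 9, a number reached by 1.59% of all windows, the Emcn window held 6, a number reached by 15.7%, and the Npr3 window held none, as did 4.02%. A longer ETS motif, ACNGGAAG, which contains GGAA, was found in 3 of the 10 windows (2 of Egfl7 and the window of Emcn) and in 8.15% of all windows. The windows with the most and the fewest matches, and an Egfl7 window with the longer motif, are shown 5′ to 3′ on the strand of the gene, with each GGAA or TTCC in capitals. They lie at chr4:118489800-118490099 (minus strand, Tie1), chr3:137340828-137341127 (plus strand, Emcn), chr2:26583615-26583914 (plus strand, Egfl7) and chr15:11907322-11907621 (minus strand, Npr3).
Tie1: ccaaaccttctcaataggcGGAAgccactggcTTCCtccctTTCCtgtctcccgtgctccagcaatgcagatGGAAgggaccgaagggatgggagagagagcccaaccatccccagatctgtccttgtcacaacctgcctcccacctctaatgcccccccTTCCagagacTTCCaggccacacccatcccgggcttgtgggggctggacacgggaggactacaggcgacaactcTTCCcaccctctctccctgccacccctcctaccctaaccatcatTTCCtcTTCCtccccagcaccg
Emcn: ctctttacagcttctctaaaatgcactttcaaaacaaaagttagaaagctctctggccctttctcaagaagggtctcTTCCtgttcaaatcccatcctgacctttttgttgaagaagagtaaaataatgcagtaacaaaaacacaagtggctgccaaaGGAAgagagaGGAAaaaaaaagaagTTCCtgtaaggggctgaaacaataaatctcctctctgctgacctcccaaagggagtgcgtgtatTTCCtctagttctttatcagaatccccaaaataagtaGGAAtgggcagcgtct
Egfl7: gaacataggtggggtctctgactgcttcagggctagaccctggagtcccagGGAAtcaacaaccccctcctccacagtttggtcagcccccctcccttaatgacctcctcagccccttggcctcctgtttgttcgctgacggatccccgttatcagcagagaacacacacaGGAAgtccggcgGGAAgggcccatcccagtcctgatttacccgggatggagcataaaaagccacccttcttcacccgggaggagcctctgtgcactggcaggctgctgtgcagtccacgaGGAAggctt
Npr3: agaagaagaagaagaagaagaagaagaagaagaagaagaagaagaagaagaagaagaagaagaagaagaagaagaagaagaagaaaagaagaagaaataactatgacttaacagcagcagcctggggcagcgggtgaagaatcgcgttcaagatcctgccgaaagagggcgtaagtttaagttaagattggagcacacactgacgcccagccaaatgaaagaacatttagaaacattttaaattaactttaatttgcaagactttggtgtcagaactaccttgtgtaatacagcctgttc
A match is a description of letters in the window and not a measured binding site.

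Egfl7 (chr2:26580014-26593120, plus strand) encodes a protein that endothelial cells secrete into their matrix, and it hosts the microRNA miR-126. It was the most abundant of the 10 genes at both stages. The PE libraries measured 157, 138 and 136 CPM and the EE libraries 45.5, 40.6 and 40.9 CPM. The spread within each stage was small, and the means were 143.9 ± 11.7 and 42.3 ± 2.76 CPM (SD, n = 3 each). The log2 fold change was -1.76 (SE 0.181, adjusted p = 0.00046), the smallest adjusted p of the set. In contrast to the other genes that were higher in PE, Egfl7 was not lowest in EE3, where its level was 0.899 times that of EE1. Of its exon bases, 9.41% overlap Gm20532 and Mir126a on the same strand and 3.41% overlap Agpat2 and Mir126b on the other strand, so a share of its reads may belong to these.

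The locus of miR-126 lies in an intron of 8 annotated Egfl7 transcripts and in an exon of 1, and its mature RNAs were counted in the small RNA libraries. The annotation holds Mir126a on the strand of Egfl7 and Mir126b on the opposite strand. The mature sequences are shown with the seed (bases 2 to 8) in capitals because reads from them could not be told apart in the counts. They lie at chr2:26591402-26591423 (plus strand, miR-126a-3p), chr2:26591399-26591420 (minus strand, miR-126b-5p) and chr2:26591363-26591385 (minus strand, miR-126b-3p) on GRCm38.p6, as given by RefSeq.
miR-126a-3p: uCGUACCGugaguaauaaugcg
miR-126b-5p: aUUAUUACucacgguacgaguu
miR-126b-3p: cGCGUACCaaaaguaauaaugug
The miR-126a-3p and miR-126b-5p positions share 19 bases of the genome. In every library miR-126b-5p had the same count as miR-126a-3p, and miR-126b-3p the same count as miR-126a-5p, so each pair was read as 1 measurement. No other of the 1738 mature miRNAs in the RefSeq table carried the seed of miR-126a-3p.

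miR-126a-3p, the main product and a well known endothelial miRNA, had 1076, 663 and 561 counts in PE and 15, 8 and 97 counts in EE. The totals of the small RNA libraries were between 35576 and 152075. Relative to these totals after TMM scaling, the levels were 7336, 5970 and 5218 CPM in PE and 249.3, 145.7 and 2381 CPM in EE. All PE libraries were above all EE libraries, as for 41% of the 295 miRNAs tested. EE3 stood far above the other EE libraries, the opposite of its place among the mRNA levels of most of the 10 genes. The log2 fold change was -2.75 (SE 1.05, adjusted p = 0.0851) and did not pass. It passed without EE3 (log2 fold change -4.94, adjusted p = 0.00159) and without PE3 (adjusted p = 0.0105). miR-126a-5p, the arm from the other side of the hairpin, had 50, 38 and 15 counts in PE and 0 in all EE libraries, where 3 counts are worth 49.9 to 73.6 CPM. It was at least 3.72-fold higher in PE, comparing the PE mean of 274 CPM with the highest of these limits, and its adjusted p was 0.0276. It passed the filter on low counts through PE alone, the stage where it was high, so its call is a description. Of the miRNAs tested, 28.1% were called higher in PE and 3.73% higher in EE. It was lost without PE1 (adjusted p = 0.0663) and without the filter (0.072). Whether an mRNA library and a small RNA library with the same number came from the same RNA is not stated.

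**Figure D2:**
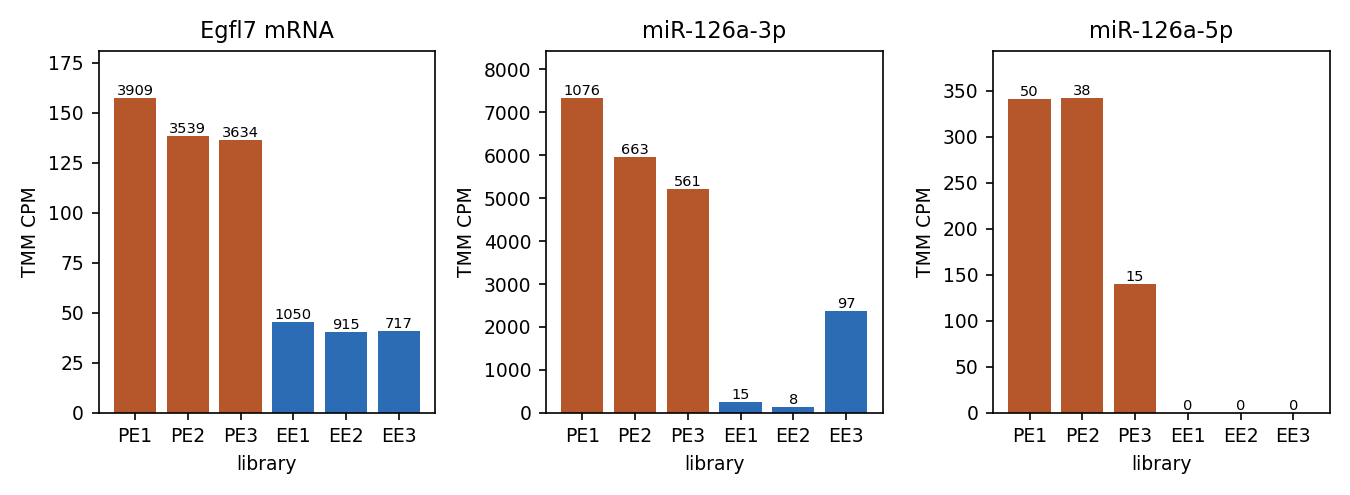
Egfl7 in the mRNA libraries and miR-126a-3p and miR-126a-5p in the small RNA libraries, in CPM, with 1 bar per library at each stage. The number above a bar is its read count. Egfl7 lies between 40.6 and 45.5 CPM in all EE libraries, whereas the EE libraries of miR-126a-3p range from 145.7 to 2381 CPM and those of miR-126a-5p are at 0.

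Plvap (chr8:71497765-71511752, minus strand) encodes the protein of the diaphragms that span endothelial fenestrae and caveolae. It had 139, 99 and 100 counts in PE and 31, 34 and 0 counts in EE, or 5.60, 3.87 and 3.75 CPM against 1.34, 1.51 and 0 CPM. EE1 and EE2 were similar, and EE3 held no read, which allows up to 0.171 CPM. The log2 fold change of -2.18 (SE 0.878, adjusted p = 0.156) did not pass the test. It did without EE3 (log2 fold change -1.62, adjusted p = 0.0328), with DESeq2 (adjusted p = 0.0409) and without the filter on low counts (adjusted p = 0.0491).

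Npr3 (chr15:11839896-11907287, minus strand) encodes the clearance receptor that removes natriuretic peptides, and it was the only gene of the 10 called higher in EE. The PE libraries held 14.9, 14.1 and 15.0 CPM and the EE libraries 44.5, 39.9 and 44.5 CPM. The libraries of each stage were close to each other, with means of 14.7 ± 0.498 and 43.0 ± 2.66 CPM (SD, n = 3 each). This gave a log2 fold change of 1.55 (SE 0.206, adjusted p = 0.00181). EE3, the lowest EE library for 7 of the 10 genes, measured 0.998 times EE1 for Npr3. Of the exon bases of Npr3, 3.42% overlap Gm5144 on the other strand. The ratio of Npr3 to the summed level of the 8 genes with the higher PE levels was 0.0374, 0.0339 and 0.0366 in the PE libraries and 0.391, 0.392 and 0.648 in the EE libraries.

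Of the 5 other genes of the natriuretic peptide system, the 2 cardiac peptides were higher in EE. Nppa (atrial natriuretic peptide) rose from 0.242, 1.17 and 1.54 CPM in PE to 53.4, 30.9 and 30.3 CPM in EE, with a log2 fold change of 5.27 (adjusted p = 0.00059). Nppb (B-type) rose from 0.262 to 0.443 CPM to 10.2 to 15.5 CPM (log2 fold change 5.32, adjusted p = 0.000125). Both are made by cardiomyocytes, and 3 of the 6 cardiomyocyte markers were higher in EE as given above. The signalling receptors Npr1 and Npr2 were at most 4.73 CPM in any library and did not pass, nor did Nppc.

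Nfatc1 (chr18:80606205-80713071, minus strand) encodes a transcription factor activated by the phosphatase calcineurin and needed in the endocardium of the forming valves. It measured 8.50, 8.59 and 7.42 CPM in PE and 11.3, 12.5 and 11.4 CPM in EE. Every EE library was above every PE library by a small margin, with a log2 fold change of 0.52 (SE 0.261, adjusted p = 0.254) that did not pass. Within a library, the ratio of Nfatc1 to Pecam1 was 0.359, 0.242 and 0.244 in PE and 3.06, 1.89 and 4.26 in EE. Of 8 other genes of the calcineurin pathway, Rcan1, a calcineurin regulator whose own transcription responds to Nfat proteins, was higher in EE, with 45.3, 55.7 and 57.9 CPM in PE and 144, 126 and 92.8 CPM in EE, for a log2 fold change of 1.19 (adjusted p = 0.00956). Nfatc4, a related factor, was higher in PE, with 18.04, 22.2 and 15.7 CPM in PE and 7.76, 7.90 and 3.37 CPM in EE, for a log2 fold change of -1.55 (adjusted p = 0.0264, lost without PE2, PE3 or EE2). The other 6, the calcineurin subunits among them, did not pass.

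Compared with each other per length of exon, Egfl7 and Esam were the most abundant of the 10 genes in PE, at 40.2 and 37.1 CPM per kb. They were followed by Emcn at 12.4, Tie1 at 8.33, Pecam1 at 4.79, Eng at 2.98, Plvap at 2.22, Npr3 at 1.56, Nfatc1 at 1.09 and Erg at 0.963 CPM per kb. Neighbours in this order that overlapped between libraries were Eng with Plvap and Nfatc1 with Erg. In EE the order on the same scale was Egfl7 at 11.8, Esam at 7.69, Npr3 at 4.58, Emcn at 3.08, Nfatc1 at 1.57, Eng at 1.04, Tie1 at 0.811, Pecam1 at 0.695, Plvap at 0.478 and Erg at 0.0467 CPM per kb. Npr3 thus stood behind only Egfl7 and Esam in EE, and from there on nearly all neighbours overlapped, with the exception of Nfatc1 and Eng.

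The genes also differed in how much of the PE level the EE libraries held. The EE mean was 4.85% of the PE mean for Erg, 9.74% for Tie1, 14.5% for Pecam1, 20.7% for Esam, 21.6% for Plvap, 24.8% for Emcn, 29.4% for Egfl7 and 35.0% for Eng. The spread among the EE libraries was also uneven, with a coefficient of variation of 130% for Erg and 68.3% for Tie1 but 6.51% for Egfl7, 6.19% for Npr3 and 5.57% for Nfatc1. EE3 was the lowest EE library for Pecam1, Tie1, Emcn, Eng, Erg, Esam and Plvap. The summed level of the 8 genes with the higher PE levels was 397.5, 416.1 and 410.1 CPM in PE and 113.8, 101.6 and 68.6 CPM in EE1, EE2 and EE3. EE3 was also the library with the fewest detected genes and the lowest blood cell level, as given above, and the part of either in its endothelial levels was not tested. Without EE3, the log2 fold changes were all of the same sign, and Plvap joined the genes called higher in PE.

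**Figure D3:**
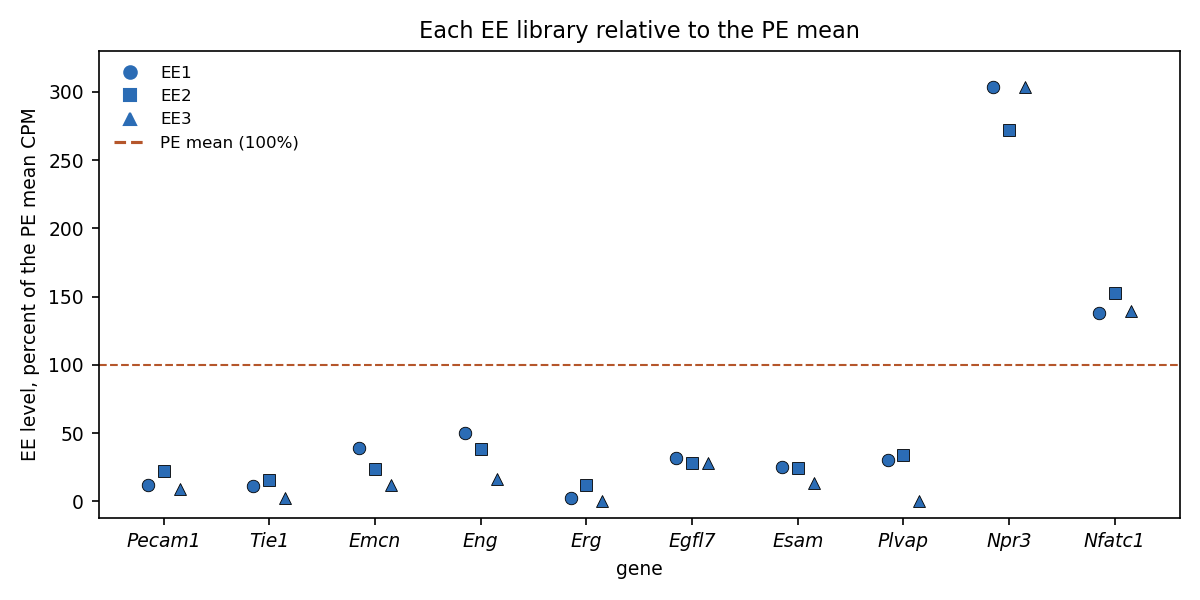
Level of each gene in each EE library as a percentage of its PE mean, with 1 point per library and a line at the PE mean of each gene. The EE3 points lie at the bottom for 7 of the 10 genes and reach 0 for Erg and Plvap, while the points of Egfl7, Npr3 and Nfatc1 are close together.

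The wider endothelial programme was then described with lists of other genes. Of 22 other pan-endothelial genes, 13 were higher in PE, with the other 9 not passing and with a median log2 fold change of -2.28. Without PE2 or without PE3 the count was 8. The 13 include Cldn5, which passed the filter on low counts through PE alone. The summed level of the 22 was 667 to 713 CPM in PE and 479, 415 and 271 CPM in EE1, EE2 and EE3, again lowest in EE3. Tek, which did not pass, made up 109 to 195 CPM of the PE sums and 277, 227 and 145 CPM of the EE sums. Ramp2 and Calcrl, which form the adrenomedullin receptor, were both higher in PE. Ramp2 measured 94.6, 39.4 and 49.2 CPM in PE and 19.2, 26.4 and 21.9 CPM in EE, for a log2 fold change of -1.44 (adjusted p = 0.0251, lost without EE1, without EE2 or without EE3). Calcrl measured 45.2, 61.3 and 65.3 CPM in PE and 21.8, 18.4 and 6.91 CPM in EE, for a log2 fold change of -1.86 (adjusted p = 0.0162, lost without EE2). Cdh5 (VE-cadherin), the adhesion molecule that defines endothelial junctions, measured 10.1, 9.41 and 10.3 CPM in PE and 2.04, 2.0 and 0.913 CPM in EE, for a log2 fold change of -2.58 (adjusted p = 0.00371). Clec14a, a lectin of endothelial cells, had the smallest adjusted p of this list (0.000373) and was 10.1-fold higher in PE, at 49.7 to 55.3 CPM against 3.02 to 6.98 CPM. Cldn5, the claudin of endothelial tight junctions, had 13.6, 1.37 and 1.69 CPM in PE and no count in any EE library, where 3 counts are worth 0.1301 to 0.171 CPM, and PE1 held most of it. Setting Cldn5 to the bound that these limits allow leaves the median of the list as given.

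Kdr (Vegfr2) did not pass the test. Its PE libraries were nearly equal, and its EE libraries were far apart. It measured 43.3, 43.3 and 43.8 CPM in PE and 7.50, 16.3 and 0.970 CPM in EE, for a log2 fold change of -2.39 (SE 0.691, adjusted p = 0.0610). It passed without EE2 (log2 fold change -3.34) and without EE3. Flt1 (Vegfr1) and Tek had log2 fold changes above 0, at 0.31 and 0.42, and neither passed, with adjusted p of 0.590 and 0.410. Vwf, Ecscr and Icam2 had log2 fold changes of -0.71, -0.44 and -0.81 and did not pass either.

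**Figure D4:**
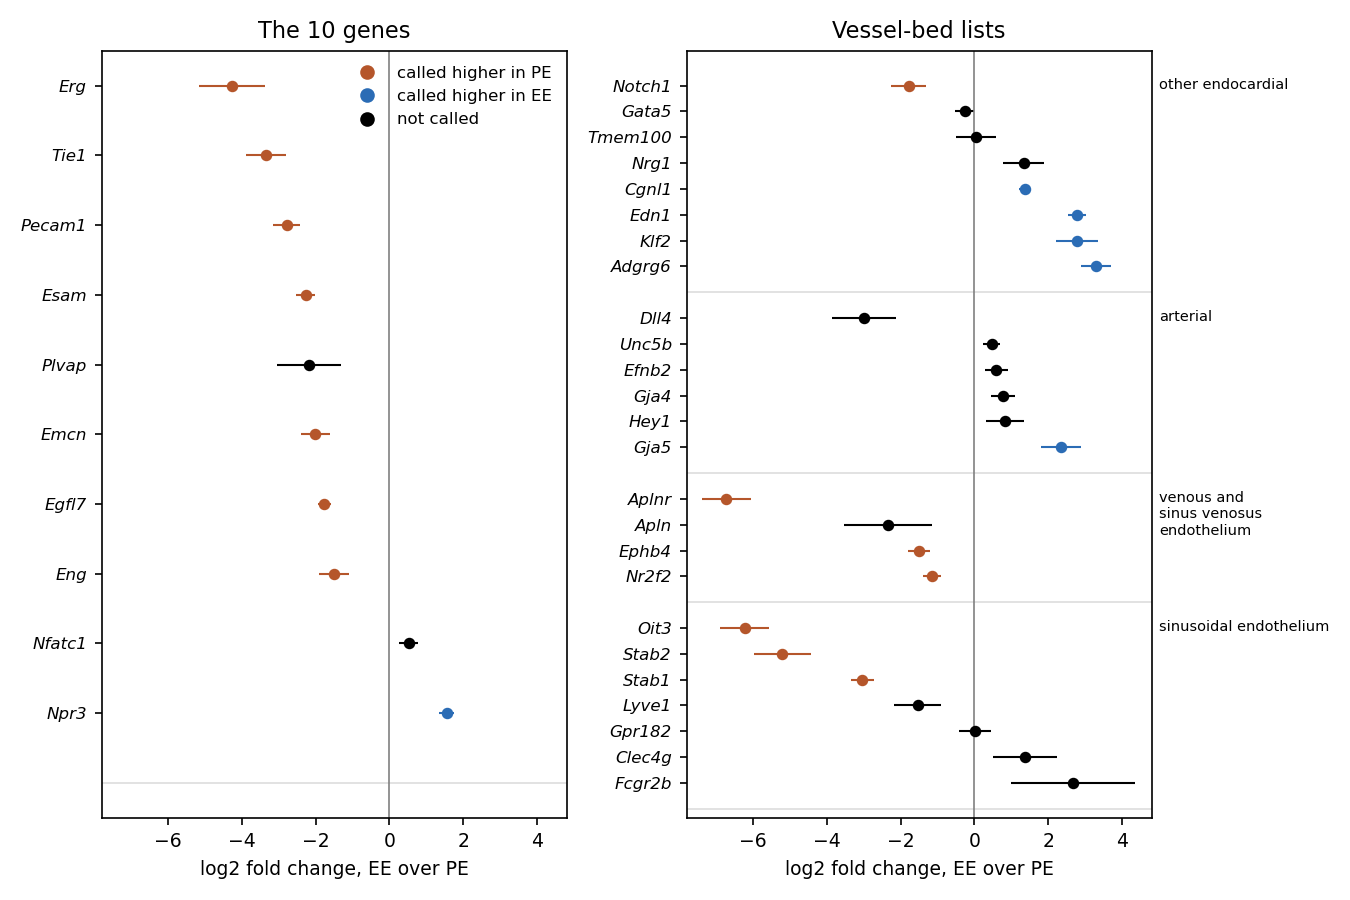
Log2 fold change (EE over PE) with its SE for the 10 genes on the left and for lists of endocardial, arterial, venous and sinusoidal genes on the right. Points are coloured by the stage in which a gene was called higher, and uncalled genes are black. Calls in EE are found among the endocardial genes and for Npr3, Gja5 being the arterial one.

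Lists for different vessel beds did not move in 1 direction. Of 8 other endocardial genes, 4 were higher in EE, 1 was higher in PE and the other 3 failed the test, and their median log2 fold change was 1.35. Cgnl1, a junction protein that epithelia also make, measured 87.8, 97.5 and 92.9 CPM in PE and 258.5, 222.8 and 237.8 CPM in EE, for a log2 fold change of 1.37 (adjusted p = 0.00131). Edn1 (endothelin 1) measured 7.13, 5.97 and 7.76 CPM in PE and 54.1, 38.5 and 50.1 CPM in EE, for a log2 fold change of 2.77 (adjusted p = 0.000271). Adgrg6, an adhesion receptor of the endocardium, went from 0.967 to 2.58 CPM to 15.4 to 24.4 CPM (log2 fold change 3.29, adjusted p = 0.00145). Klf2, a factor induced by blood flow, was also higher in EE (log2 fold change 2.78, adjusted p = 0.0154, lost without PE2 or PE3). Its levels were low, at 0.525 to 1.13 CPM in PE and 2.40 to 7.53 CPM in EE. Notch1, a receptor of both endocardium and arteries, was the gene in the opposite direction (log2 fold change -1.78, adjusted p = 0.0453), and its call was lost without PE1, PE2, PE3 or EE2. Gata5, a factor of endocardium and mesothelium, had 13.9 to 17.1 CPM in PE and 11.6 to 15.8 CPM in EE and did not pass.

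Of 6 arterial genes, Gja5 (connexin 40), which atrial muscle also makes, was higher in EE, at 0.846, 1.91 and 1.27 CPM in PE and 10.8, 6.57 and 3.14 CPM in EE, for a log2 fold change of 2.35 (adjusted p = 0.0253). The call was lost without PE1, PE3, EE1 or EE2. The other 5, with Unc5b, Hey1, Efnb2 and Gja4 the most abundant, did not pass. Dll4, the least abundant, was the only arterial gene with a log2 fold change below 0 (-3.00, adjusted p = 0.0617). It measured 2.70, 2.42 and 2.21 CPM in PE and 0.304, 0.577 and 0 CPM in EE. Of 4 genes of venous and sinus venosus endothelium, 3 were higher in PE, and 1 without PE2. Aplnr, the apelin receptor of sinus venosus endothelium, measured 79.8, 125.1 and 104.4 CPM in PE and 0.0867, 1.46 and 1.43 CPM in EE, for a log2 fold change of -6.72 (adjusted p = 0.0004). Nr2f2 (COUP-TFII), a factor of veins and of several mesenchymal tissues, measured 89.9, 106.4 and 117.4 CPM in PE and 33.2, 59.2 and 47.9 CPM in EE, for a log2 fold change of -1.16 (adjusted p = 0.0175, lost without PE2 or PE3). Ephb4, the receptor of venous endothelium, was 2.84-fold higher in PE (log2 fold change -1.50, adjusted p = 0.0162, lost without PE2 or EE2).

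Of 7 genes of sinusoidal endothelium, the vessel type of the liver, 3 were higher in PE, with the other 4 not passing and with a median log2 fold change of -1.54. Oit3 measured 86.0, 57.9 and 63.2 CPM in PE and 0.824, 1.77 and 0.0571 CPM in EE, with a log2 fold change of -6.23 (adjusted p = 0.00057), or -7.20 without EE2. The scavenger receptor Stab1 was 8.25-fold higher in PE (log2 fold change -3.04, adjusted p = 0.000434). Stab2, a related receptor, was also called higher in PE (adjusted p = 0.00309), with 206, 126 and 115 counts in PE and 7, 3 and 0 counts in EE. Gpr182 overlapped between the stages, at 18.7 to 32.7 CPM in PE and 13.5 to 43.3 CPM in EE. Lyve1 was at 5.96 to 6.79 CPM in PE and 0.780 to 4.70 CPM in EE and did not pass. The 6 hepatoblast markers, which were high in PE, were given with the libraries above, and their part in the sinusoidal levels was not tested.

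**Figure D5:**
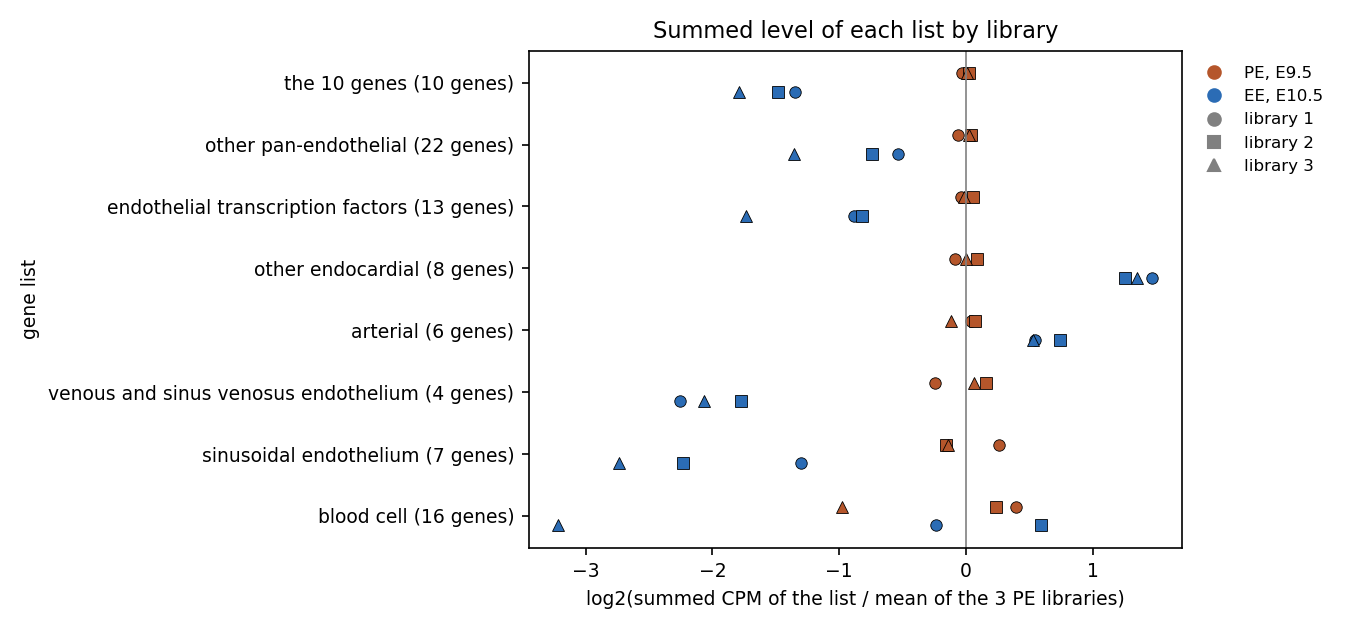
Summed CPM of each gene list in each library as log2 of its ratio to the mean of the 3 PE libraries, with the number of genes per list in brackets. EE libraries lie below PE for the 10 genes, the pan-endothelial, transcription factor, venous and sinusoidal lists and above PE for the endocardial and arterial lists, and the blood cell list spreads over both sides with EE3 lowest.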

How the data were processed

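RNA was measured in 3 PE and 3 EE libraries by mRNA-seq (SMART-Seq v4 amplification, without strand information) and in 3 and 3 by small RNA-seq. The authors deposited read counts per gene and per mature miRNA. The submitters' processing notes name Trim Galore 0.4.3.1, STAR, featureCounts, mm10 and GRCm38.p6, whereas the methods of the study name RSEM for the mRNA, and the deposited values are whole counts. Columns named EPDC were read as the EE libraries, the only other group in the labels.

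Genes counted in at least 3 of 6 libraries (1 or more counts), and miRNAs with a count in all 3 libraries of a stage, were tested. Counts were scaled by TMM and compared with edgeR 4.0.16 (quasi-likelihood test, R 4.3.3) with Benjamini-Hochberg adjustment over all features tested. Calls needed an adjusted p of at most 0.05 and more than 1.5-fold. DESeq2 1.42.0 and limma 3.58.1 were alternatives, and the closing section gives their effect. CPM used TMM library sizes. Coordinates are from the GENCODE annotation on GRCm38.

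The members and lists were chosen with earlier results of these data known. Named were all 10 genes, both miR-126a arms, up to 4 of the most abundant genes of each list, called genes of the endothelial lists that went against most called genes of their list, and the genes most like the 10 in pattern, of which 1 is not reported here. Cdh5, Clec14a, Cldn5, Kdr, Flt1, Vwf, Ecscr, Icam2, Ets2, Sox18, Acvrl1, Bmp10, Klf2, Gja5, Dll4, Stab2, Nfatc4, Nppc and Pf4 were named after their values were seen.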

Additional observations from a re-analysis of the deposited data

How the results depend on the processing

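Of the 10 genes, 6 kept their call, or the lack of one, under all 14 alternatives (Pecam1, Tie1, Egfl7, Esam and Npr3 as called, Nfatc1 as not called, with an adjusted p of 0.154 to 0.599), and the sign of no fold change turned for any of the 10. The number of the 10 called higher in PE was 5 to 8 when leaving out 1 library, 8 with DESeq2 and without the filter, and 7 with limma. The number of genes higher in PE and in EE was 1894 and 1716 with DESeq2 and 1441 and 1113 with limma. It was 470 to 1100 and 563 to 1160 when leaving out 1 library, lowest without PE2 (470 and 595) and PE3 (501 and 563). Scaling by library size alone moved the median log2 fold change of all genes by -0.12 and gave 1500 and 927, so the share of calls that were higher in PE went from 51.8% to 61.8%. The number of miRNAs higher in PE was 53 with filterByExpr and 34 without a filter, that of miRNAs higher in EE was 22 with DESeq2 and 4 without a filter, and leaving out 1 library gave 7 to 132 and 3 to 18. With limma, 97 miRNAs were higher in PE and 14 in EE. Keeping sets of miRNAs with identical counts once, an alternative chosen after seeing the data, gave 71 and 8. miR-126a-3p also passed with DESeq2 (adjusted p = 0.0398), limma (0.0317) and no filter (0.000215), and the call of miR-126a-5p was lost without a filter (0.072). The cause of these shifts was not tested. Erg and Plvap in EE and miR-126 in the small RNA libraries rest on few counts.

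The correlations of libraries with the same number across stages were -0.155, 0.089 and -0.0354 for mRNA and -0.0838, 0.0196 and -0.0649 for miRNA. They show no pairing by number, but 3 libraries per stage are too few to exclude it. With a replicate block, 1382 genes were higher in PE and 1140 in EE, and 16 miRNAs in PE and 5 in EE. Of the 10 genes, 8 were then higher in PE, Plvap included (adjusted p = 0.0335). Under the block miR-126a-3p passed (adjusted p = 0.0296) and miR-126a-5p did not (0.228).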

Other observations

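Among 10166 genes with a mean of at least 5 CPM, the pattern over the 6 mRNA libraries most like the mean of Pecam1, Tie1, Emcn, Eng, Erg, Egfl7, Esam and Plvap was that of Iqgap3, Ldb2, Upp1, Elf3, Porcn, Thsd1, Nos3, Mfng, Nell1 and Plppr3 (Pearson's r of 0.996 to 0.998 on log2(CPM + 1), given as a description because the 6 libraries fall into 2 stages). Nos3, the endothelial nitric oxide synthase, is the gene of these that is also on the pan-endothelial list, at 16.2, 15.7 and 14.9 CPM in PE and 2.73, 2.48 and 0.514 CPM in EE. The genes most like Npr3 were Anxa1, Cryab, Anxa3, Rab32 and Edn1 (r of 0.998 to 0.999), of which Edn1 is on the endocardial list. Among those most like Nfatc1 were Mrap, Cntln, Fggy and Capn2 (r of 0.986 to 0.996).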
